A study of Mus musculus with 20 samples.

Results

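The inner nuclear layer (INL) of the mouse retina was compared with the ganglion cell layer (GCL) on 8 of the 20 arrays of the series. The arrays were chosen by their titles alone, 4 INL and 4 GCL. All tissue came from adult C57BL/6 mice aged 7 to 8 weeks. Each layer has 2 arrays from mice dark adapted for 3 h, kept at no more than 0.4 lux, and 2 from mice light adapted for 6 h at 450 lux. The layers were cut out of retina by laser capture microdissection, and their RNA was labelled as biotinylated cRNA and hybridised to Affymetrix gene arrays. The other 12 arrays hold the photoreceptor layer (PRL), the inner plexiform layer (IPL) and the whole retina under the same adaptations. No source ties an array to an animal or gives the number of animals, so p-values measure the spread between these samples, which may be technical.

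The INL holds the cell bodies of bipolar, horizontal and amacrine cells, which carry and shape signals within the retina, and of Müller glia, which span its depth. The GCL holds ganglion cells, whose axons form the optic nerve, together with displaced amacrine cells, astrocytes and vessels. ON bipolar cells sense photoreceptor glutamate through the receptor mGluR6, which acts through a G protein on the cation channel Trpm1. Ganglion cells are known for genes of long axons, such as neurofilaments, and for the vesicular glutamate transporter Slc17a6. A captured layer is a mixture, so fewer cells of a type and less RNA per cell cannot be told apart in any value below.

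In all, 25 genes were higher and 44 were lower in the INL than in the GCL, of 15057 tested with limma at a Benjamini-Hochberg adjusted p under 0.05. These are 0.166% and 0.292% of the genes, 0.458% together, and the median difference of all genes was 0.0055. Differences are INL minus GCL on a log2 scale, with light and dark weighted equally and values under an intensity of 8 set to 8. Errors after ± are standard errors of the fit, unless given as SD. Genes past the threshold are named as called below. The arrays of the layers did not overlap for 24 of the 25 and for 42 of the 44 called genes. Over all genes 2.01% were higher in the INL without overlap and 2.52% were lower. More than a 2-fold difference was found for 17 of the higher and 34 of the lower genes, and 9 lower genes differed by more than 4-fold. With the replicate number as a block, the counts were 45 higher and 109 lower, and all 69 genes called without the block were among them. No label says what that number marks.

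The counts depended on single arrays. Without replicate 1 or replicate 2 of the dark-adapted INL they were 34 higher and 29 lower, or 12 and 30. Without replicate 1 or 2 of the light-adapted INL they were 14 and 24, or 5 and 16. Leaving out replicate 1 or 2 of the dark-adapted GCL gave 13 and 59, or 6 and 14. For the light-adapted GCL the counts were 19 and 63, or 10 and 14. The genes called in all 8 of these fits were 4 of the higher ones (Trpm1, Rlbp1, Lrtm1 and Pcp2) and 14 of the lower ones (Thy1, Nefl, Nefm, Calb2, Slc17a6, Sparcl1, Cdk14, Nrn1, Sncg, Rgs4, Map1b, Cplx1, Eno2 and Rbpms).

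**Figure D1:**
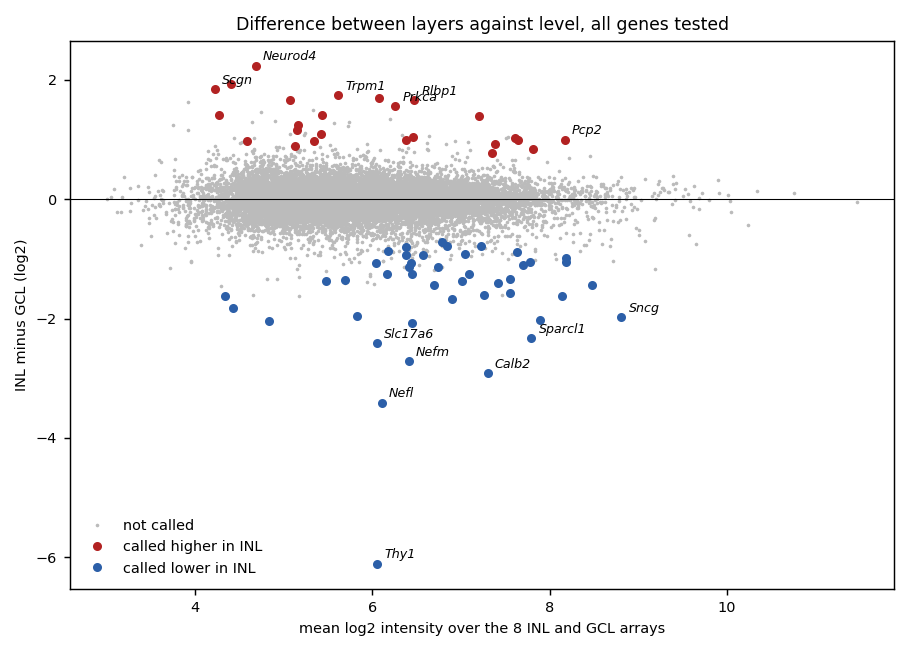
Each point is 1 of the 15057 genes, with its mean log2 intensity over the 8 arrays on the x axis and INL minus GCL on the y axis. The 25 genes called higher in the INL (red) lie between 0.77 and 2.24, and the 44 called lower (blue) reach down to Thy1 at -6.11.

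On these 8 arrays 11.6% to 12.3% of values were under the floor of 8, and medians were 40.3 to 40.8 after a normalisation that makes the arrays alike. Photoreceptor transcripts were present in both layers. The mean log2 level of 22 photoreceptor markers was 6.22, 6.79, 5.68 and 5.74 on the INL arrays, against 6.04, 5.46, 5.66 and 6.92 on the GCL arrays, and 8.79 ± 0.11 (SD, n = 4) in the PRL. Here and below, the 4 values of a layer are those of dark-adapted replicates 1 and 2 and light-adapted replicates 1 and 2. Rod transducin Gnat1 had intensities of 335, 633, 82.9 and 119 in the INL, against 322, 138, 153 and 843 in the GCL. None of the 22 markers was called, which is near the share of all genes (0.458%), and their part in the differences was not tested. Probe sets on the Y chromosome (21, by median) stood at 264 on replicate 1 of the light-adapted INL, and at 348 and 203 on replicates 1 and 2 of the light-adapted GCL. They stood at 16.7 to 26.7 on the other 5 arrays. With that signal as a covariate 21 genes were higher and 52 lower. All 4 dark-adapted arrays are among these 5, and their counts are given below.

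Promoters are printed here for 5 called genes, 3 higher and 2 lower in the INL, as examples that hold a motif searched for in both groups. RefSeq promoters (GRCm38.p6, 250 bases before to 50 after a start, on the gene's strand, 5′ to 3′) were found for 22 of the 25 higher and 28 of the 44 lower genes. The motif TAATCC, the core of sites bound by OTX2 and CRX, was searched on both strands. It was found in 5 of the 22 higher genes (Trpm1, Cabp5, Lrtm1, Lamp5 and Car5b) and in 1 of the 28 lower genes (Map1b). Of all 27025 genes with a promoter, 8.14% held it in at least 1 promoter, and of the genes tested 7.22%. The E-box CAGCTG, the class of site bound by basic helix-loop-helix factors such as Neurod4, reads alike on both strands. It was in 6 of 22 higher and 10 of 28 lower genes, against 18.3% of all genes. GGCGGG, a site of Sp-family factors searched on both strands, was in 7 of 22 and 19 of 28, against 37.9% of all genes and 59.3% of those tested. Matches of different motifs were counted separately, also where they overlap. A match is a stretch of letters, not a measured site. Capitals mark the first motif, on either strand, in the first 3 sequences and the E-box in the last 2.
Trpm1, chr7:64153585-64153884, plus strand: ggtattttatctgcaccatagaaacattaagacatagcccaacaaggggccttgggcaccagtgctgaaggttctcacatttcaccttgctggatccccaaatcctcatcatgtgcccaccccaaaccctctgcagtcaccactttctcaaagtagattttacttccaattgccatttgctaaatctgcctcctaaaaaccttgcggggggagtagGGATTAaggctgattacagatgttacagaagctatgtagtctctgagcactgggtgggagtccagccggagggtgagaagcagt
Cabp5, chr7:13397905-13398204, plus strand: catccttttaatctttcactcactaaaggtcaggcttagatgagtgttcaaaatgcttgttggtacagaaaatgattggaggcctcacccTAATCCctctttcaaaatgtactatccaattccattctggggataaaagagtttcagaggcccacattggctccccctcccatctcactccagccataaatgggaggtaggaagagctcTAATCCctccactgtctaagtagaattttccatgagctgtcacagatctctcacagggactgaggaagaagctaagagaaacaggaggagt
Lrtm1, chr14:29017958-29018257, plus strand: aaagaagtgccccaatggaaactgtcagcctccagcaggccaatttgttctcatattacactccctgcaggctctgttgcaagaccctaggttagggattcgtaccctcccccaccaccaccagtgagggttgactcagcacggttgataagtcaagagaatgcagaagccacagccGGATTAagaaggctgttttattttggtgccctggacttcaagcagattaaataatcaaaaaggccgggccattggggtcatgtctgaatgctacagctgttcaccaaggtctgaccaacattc
Pou4f1, chr14:104467950-104468249, minus strand: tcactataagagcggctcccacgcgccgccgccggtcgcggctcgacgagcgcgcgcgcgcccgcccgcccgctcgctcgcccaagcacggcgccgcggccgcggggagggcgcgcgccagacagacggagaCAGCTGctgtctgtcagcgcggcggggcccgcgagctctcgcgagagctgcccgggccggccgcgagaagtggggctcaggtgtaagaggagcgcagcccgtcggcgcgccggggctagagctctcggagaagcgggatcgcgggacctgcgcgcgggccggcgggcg
Ina, chr19:47014431-47014730, plus strand: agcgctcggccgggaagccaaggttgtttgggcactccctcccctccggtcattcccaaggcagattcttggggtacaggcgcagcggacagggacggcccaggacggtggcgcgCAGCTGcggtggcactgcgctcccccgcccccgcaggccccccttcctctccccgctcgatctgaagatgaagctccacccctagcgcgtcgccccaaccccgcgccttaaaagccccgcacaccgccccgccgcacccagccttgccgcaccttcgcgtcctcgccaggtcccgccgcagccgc

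Markers of bipolar cells were the main group higher in the INL. Of 18 measured markers 5 were higher, against 0.166% of all genes, and 0 lower, with a median difference of 0.58 over the list. The count was 2 with no filter on low values and 1 in a fit of only the 8 INL and GCL arrays. Trpm1, the ON bipolar cation channel whose promoter is printed above, had intensities of 70.3, 64.5, 126 and 113 in the INL, against 35.8, 34.7, 26.3 and 15.7 in the GCL. Every INL array was above every GCL array, and the difference was 1.74 ± 0.18 (3.35-fold, adjusted p = 0.00011, n = 4 each). Scgn, the calcium-binding protein secretagogin of cone bipolar cells, stood at 24.8, 96.2, 20.9 and 30.9 in the INL, against 10.7, 11.9, 9.3 and 7.9 in the GCL. It was the second dark-adapted INL array that stood highest, and the difference was 1.84 ± 0.32 (adjusted p = 0.014). All GCL values of Scgn lie near the floor of 8, the lowest under it. Over 18 other settings of the fit the difference ran from 1.03 to 2.33. Cabp5, a calcium-binding protein of bipolar cells, had 66.1, 202, 88.3 and 184 in the INL, against 50, 26.1, 42.9 and 34.4 in the GCL, a difference of 1.70 ± 0.34 (adjusted p = 0.028). Prkca, the protein kinase C of rod bipolar cells, had 89.0, 227, 106 and 139 in the INL, against 45.6, 44.1, 39.4 and 49.1 in the GCL. Its difference was 1.56 ± 0.25 (adjusted p = 0.0072), with all GCL arrays within a narrow range. Pcp2, a regulator of Go in ON bipolar cells, had 331, 511, 365 and 443 in the INL, against 238, 253, 154 and 186 in the GCL, and was 1.00 ± 0.15 higher (adjusted p = 0.0042). With the block 8 of the 18 were called. The 5 became 2 without replicate 2 of the light-adapted INL or of the dark-adapted GCL, 3 without replicate 2 of the light-adapted GCL and 9 without replicate 1 of the dark-adapted INL. In the first of these fits the adjusted p was 0.098 for Scgn, 0.18 for Cabp5 and 0.068 for Prkca.

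Other parts of the mGluR6 cascade did not pass the threshold. Of its 12 measured members 1 was called, Trpm1, and the median was 0.33. The receptor gene Grm6 had 52.8, 92.8, 60.0 and 46.9 in the INL, against 31.7, 26.9, 49.4 and 46.4 in the GCL, so the layers overlapped (0.70 ± 0.18, adjusted p = 0.13). Gpr179, the orphan receptor that holds the cascade's regulators of G-protein signalling in place, had 154, 237, 177 and 197 in the INL, against 98.1, 82.3, 132 and 82.8 in the GCL. Its arrays did not overlap, but the difference of 0.96 ± 0.21 had an adjusted p of 0.052, and of 0.022 with the block. Gnb3, the G-protein beta subunit of the cascade, was at 0.68 ± 0.21 (adjusted p = 0.30). Otx2, a transcription factor of photoreceptors and bipolar cells, had 119, 195, 101 and 126 in the INL, against 79.0, 69.8, 79.1 and 65.7 in the GCL (0.84 ± 0.20, adjusted p = 0.078, and 0.035 with the block). Vsx1, a transcription factor of cone bipolar cells, was at 0.15 ± 0.18, and the glutamate receptor subunit Grik1 of OFF bipolar cells at 1.32 ± 0.40 (adjusted p = 0.28, and 0.027 with the block).

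Of 15 measured Müller glia markers 1 was higher, Rlbp1, which encodes the retinaldehyde-binding protein CRALBP. Its intensities were 132, 217, 140 and 154 in the INL, against 49.6, 40.2, 53.5 and 58.0 in the GCL, without overlap. The difference was 1.66 ± 0.16 (3.16-fold, adjusted p = 9.5e-05), and the gene kept its call without each array in turn. Abca8a, a transporter of Müller glia, had 43.5, 133, 48.2 and 73.0 in the INL, against 32.5, 25.0, 23.8 and 16.7 in the GCL (1.49 ± 0.33, adjusted p = 0.056, and 0.012 with the block). Glutamine synthetase Glul had 405, 590, 353 and 506 in the INL, against 201, 307, 242 and 372 in the GCL, with overlap (0.73 ± 0.30, adjusted p = 0.58). The glutamate transporter Slc1a3 was at 0.40 ± 0.20 and apolipoprotein Apoe at 0.26 ± 0.12. Differences were positive for 13 of the 15, against 7666 of all 15057 genes, and the median of the list was 0.26.

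Horizontal and amacrine cell markers gave no called member, which is near the share of all genes called (0.458%). Over 7 horizontal markers the differences had a median of 0.31. Its sign turned when 1 of 3 arrays was left out, with -0.04 without the second array of either INL state and -0.03 without the first light-adapted GCL array. It also turned under a stricter filter (-0.14). Prox1, a transcription factor of horizontal, AII amacrine and Müller cells, had 44.2, 146, 64.8 and 116 in the INL, against 41.3, 34.4, 23.4 and 40.3 in the GCL (1.30 ± 0.38, adjusted p = 0.26). The INL arrays of Prox1 ranged widely, and the lowest was just above the highest GCL array. The horizontal cell factors Lhx1 and Onecut1 were at 0.47 ± 0.17 and -0.31 ± 0.17. Over 16 amacrine markers the median was -0.03. Their mean level was 6.06 ± 0.05 in the INL and 6.08 ± 0.16 in the GCL (SD, n = 4 each). Gad1, which makes GABA, had 138, 129, 152 and 186 in the INL, against 157, 152, 145 and 164 in the GCL. Tfap2b, an amacrine transcription factor, was at 0.63 ± 0.25 (adjusted p = 0.52), and Pax6, shared by amacrine and ganglion cells, at -0.43 ± 0.27 (adjusted p = 0.81).

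**Figure D2:**
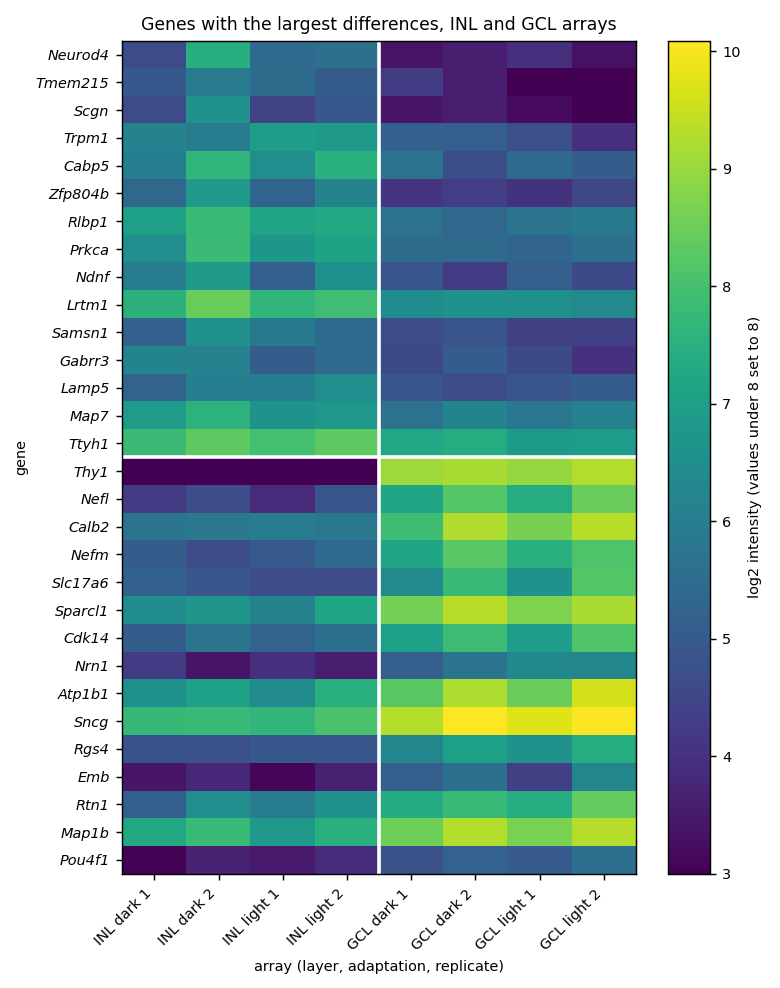
Log2 intensities (colour, values under 8 set to 8) of the 15 genes with the largest differences in each direction among those called without overlap, in the 4 INL arrays (left) and 4 GCL arrays (right). Thy1 is at the floor on all 4 INL arrays, and Scgn and Neurod4 are brightest on the second dark-adapted INL array.

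The other genes higher in the INL held a transcription factor, adhesion and channel genes and genes with little known role in retina. Neurod4, a basic helix-loop-helix factor of bipolar and amacrine cell development, had 25.0, 178, 44.2 and 49.3 in the INL, against 10.3, 12.2, 15.7 and 9.9 in the GCL. The difference was 2.24 ± 0.44 (adjusted p = 0.028). The GCL values lie close to the floor of 8, so its size depends on the scale, and it was 1.42 (adjusted p = 0.10) with log2 of intensity plus 16. It was the only one called of 31 INL transcription factors, whose median was 0.09. Its adjusted p was 0.057 when the second dark-adapted INL array was left out, and the call was lost in 6 of the 8 such fits. Lrtm1, a leucine-rich repeat transmembrane protein, had 190, 346, 204 and 241 in the INL, against 87.6, 99.4, 95.1 and 83.2 in the GCL (1.39 ± 0.19, adjusted p = 0.0017). Tmem215, a transmembrane protein, had 30.8, 62.0, 45.2 and 34.2 in the INL, against 18.7, 11.6, 8.1 and 7.4 in the GCL (1.93 ± 0.33, adjusted p = 0.011). A GCL value is under the floor and another just above it, and with log2 of intensity plus 16 the difference was 1.09 (adjusted p = 0.024). The arrays of Lrtm1 and of Tmem215 did not overlap between the layers. The zinc finger gene Zfp804b was higher by 1.67 ± 0.35, the secreted neurotrophic factor Ndnf by 1.42 ± 0.28, the adaptor Samsn1 by 1.24 ± 0.24 and the lysosomal membrane protein gene Lamp5 by 1.10 ± 0.18. The microtubule-binding Map7 was higher by 1.04 ± 0.18 and the tweety-family channel gene Ttyh1 by 1.02 ± 0.16. Tmem215 and Ndnf each lost their call in 4 of the 8 fits without 1 array, Map7 in 3, Lamp5 in 2 and Ttyh1 in 1.

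Receptor, channel and adhesion lists each had at most 1 member higher in the INL, against 0.166% of all genes. Among 18 genes of GABA and glycine signalling it was Gabrr3, a rho subunit of ionotropic GABA receptors. Its intensities were 73.9, 71.3, 34.0 and 44.5 in the INL, against 24.2, 33.6, 24.3 and 16 in the GCL, and the difference was 1.16 ± 0.22 (adjusted p = 0.023). Gabrr1, the rho subunit of bipolar terminals, had 38.4, 105, 66.2 and 85.3 in the INL, against 52.5, 40.1, 44.0 and 39.4 in the GCL, with overlap (0.66 ± 0.31, adjusted p = 0.67). Among 22 voltage-gated sodium and calcium channel genes it was Cacna2d4, the accessory subunit at photoreceptor and bipolar ribbons (0.77 ± 0.16, adjusted p = 0.038), while the T-type channel Cacna1h stood at 0.72 ± 0.17 (adjusted p = 0.091, and 0.039 with the block). Among 30 potassium and HCN channel genes it was Kcna5 (0.89 ± 0.19, adjusted p = 0.047), whose call was lost without any 1 of the 8 arrays (adjusted p of 0.079 to 0.22). The BK channel Kcnma1 had 85.9, 234, 87.0 and 107 in the INL, against 47.1, 55.0, 49.1 and 75.2 in the GCL (1.07 ± 0.37, adjusted p = 0.41, and 0.040 with the block). A second probe set of Kcnma1 was at only 0.14. Among 42 genes of axon guidance and lamination it was the cadherin Cdh8 (0.99 ± 0.19, adjusted p = 0.028). The guidance ligand Slit2 was at 1.34 ± 0.32 (adjusted p = 0.10, and 0.0027 with the block). Zfp804b, Samsn1, Gabrr3, Cacna2d4 and Cdh8 lost their calls in 6 or more of the 8 fits without 1 array, for example without replicate 2 of the dark-adapted INL (adjusted p of 0.18, 0.074, 0.072, 0.16 and 0.12). The 6 remaining called genes, named after their values were seen, were Celf3, Olfr170, Rskr, St18, Car5b and Ifi214, at 0.85 to 1.42. Olfr170 belongs to a large family of similar olfactory receptor genes, so its identity is uncertain here.

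Ganglion cell markers were the largest group lower in the INL. Of 24 measured markers 10 were lower, against 0.292% of all genes, and 0 higher, with a median of -0.81. With the block 12 were called, and 6 in a fit of only the 8 arrays. Thy1, the surface glycoprotein by which ganglion cells are often isolated, had 3.8, 4.8, 2.8 and 1.2 in the INL, all under the floor, against 534, 573, 497 and 618 in the GCL. It was at least 69.2-fold lower in the INL (adjusted p = 5.6e-14, n = 4 each). Sncg, gamma-synuclein, had 213, 224, 205 and 266 in the INL, against 628, 1089, 864 and 1064 in the GCL (-1.98 ± 0.23, adjusted p = 0.00027). Nrn1, the neurite growth factor neuritin, had 19.1, 10.6, 15.9 and 11.9 in the INL, against 35.5, 53.1, 79.5 and 75.7 in the GCL (-2.05 ± 0.24, adjusted p = 0.00029). All INL arrays of these 3 genes were below all GCL arrays. Nrn1 had log2 values over 5 only on GCL arrays, so it entered the test through the layer where it is high. Over 18 other settings of the fit its difference ran from -2.26 to -1.31. The RNA-binding protein gene Rbpms, present in most ganglion cells, had 89.8, 80.0, 72.1 and 80.1 in the INL, against 138, 240, 194 and 292 in the GCL (-1.37 ± 0.19, adjusted p = 0.0020). The transcription factor Pou4f1 (Brn3a), whose promoter is printed above, had 8.3, 12.7, 11.4 and 14.8 in the INL, against 27.0, 37.4, 32.6 and 48.0 in the GCL (-1.62 ± 0.29, adjusted p = 0.014). The INL values of Pou4f1 lay close to the floor, and it passed the filter on low values only with GCL arrays counted. Over 18 other settings of the fit its difference ran from -1.77 to -0.9.

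Most ganglion cell transcription factors did not pass the test. Of 22 on that list 2 were lower, Pou4f1 and Satb1, and the median was -0.22. Satb1 had 63.9, 69.5, 63.2 and 56.3 in the INL, against 90.1, 119, 114 and 118 in the GCL (-0.80 ± 0.17, adjusted p = 0.041). Eomes (Tbr2), of intrinsically photosensitive ganglion cells, had 53.8, 31.4, 39.3 and 26.4 in the INL, against 76.0, 51.2, 56.3 and 52.9 in the GCL, with overlap (-0.68 ± 0.23, adjusted p = 0.38, and 0.049 with the block). Isl2 was at -0.56 ± 0.20 (adjusted p = 0.45). The 10 ganglion cell markers called became 7 without replicate 2 of the light-adapted INL, of the light-adapted GCL or of the dark-adapted GCL. In these fits the adjusted p was 0.056, 0.10 and 0.12 for Pou4f1, 0.069, 0.055 and 0.055 for Nefh, and 0.13, 0.11 and 0.26 for Stmn2. Pou4f1 also lost its call without replicate 1 of the light-adapted INL (0.084) or of the dark-adapted INL (0.058). Satb1 lost its call in 7 of the 8 fits without 1 array.

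All 26 measured genes of neurofilaments, microtubules and axonal transport had negative differences, against 7391 of all 15057 genes. Of the 26, 8 were lower (0.292% of all genes were), 13 with the block (0.724%), and the median was -0.88. The count was 4 with no filter and 3 in a fit of only the 8 arrays. Among the called genes, Nefl, Nefm, Nefh and Stmn2 are also called members of the ganglion cell list. Nefl, the light neurofilament subunit, had 18.8, 25.5, 14.5 and 28.7 in the INL, against 145, 296, 166 and 356 in the GCL, a difference of -3.41 ± 0.45 (10.6-fold lower, adjusted p = 0.0012). Nefm, the medium subunit, had 33.8, 25.6, 32 and 43.2 in the INL, against 144, 307, 182 and 281 in the GCL (-2.72 ± 0.33, adjusted p = 0.00047). In both genes replicate 2 of each adaptation was the higher GCL array. Nefh, the heavy subunit, had 183, 171, 248 and 211 in the INL, against 376, 384, 392 and 549 in the GCL (-1.06 ± 0.17, adjusted p = 0.0077). The alpha-internexin gene Ina had 109, 149, 164 and 152 in the INL, against 201, 370, 276 and 423 in the GCL (-1.10 ± 0.21, adjusted p = 0.023), and a second probe set of it was at -1.52. Map1b, which binds axonal microtubules, had 150, 221, 110 and 181 in the INL, against 370, 613, 406 and 634 in the GCL (-1.62 ± 0.22, adjusted p = 0.0016). Uchl1, a ubiquitin hydrolase abundant in neurons, fell by 1.61 ± 0.26. The kinesin gene Kif5a (-1.34 ± 0.26) and the stathmin Stmn2 (-1.26 ± 0.26), named after their values were seen, complete the 8. The count was 3 without replicate 2 of the light-adapted GCL or of the dark-adapted GCL, where Ina had an adjusted p of 0.14 or 0.18, Uchl1 0.055 or 0.057 and Kif5a 0.16 or 0.19. It was 5, 4 and 5 without light-adapted INL replicates 1 and 2 and dark-adapted INL replicate 1.

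**Figure D3:**
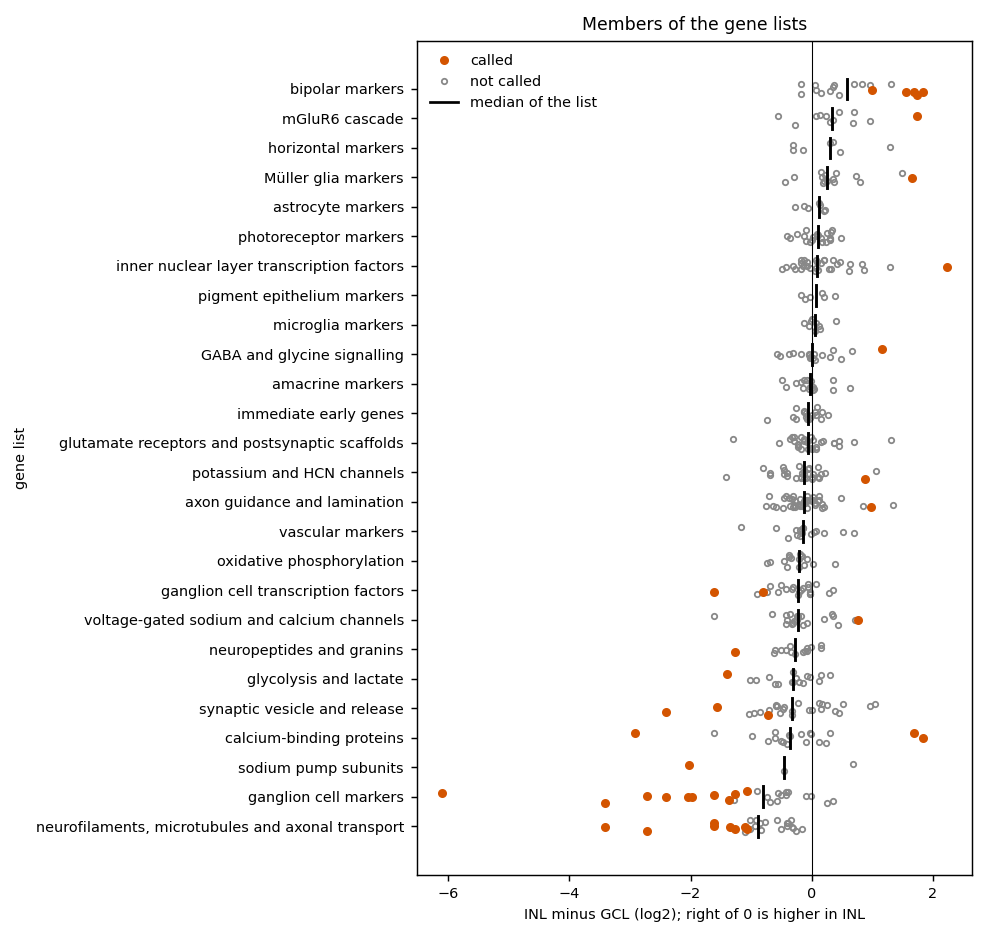
Each circle is a measured member of the gene list on the y axis, at its INL minus GCL difference on the x axis. Filled circles passed the threshold and bars mark medians, which run from 0.58 for bipolar markers to -0.88 for neurofilaments, microtubules and axonal transport.

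Vesicular transporter and complexin genes had differences of both signs, and those called were lower in the INL. Slc17a6 (Vglut2), which fills glutamate vesicles in ganglion cells, had 36.5, 29.7, 25.5 and 24.8 in the INL, against 84.2, 225, 98.7 and 291 in the GCL (-2.41 ± 0.36, 5.30-fold lower, adjusted p = 0.0033). Slc17a7 (Vglut1), the transporter of photoreceptors and bipolar cells, had 264, 342, 212 and 265 in the INL, against 147, 61.2, 142 and 216 in the GCL, with overlap (1.05 ± 0.23, adjusted p = 0.052, and 0.017 with the block). Cplx1, the complexin of conventional synapses, had 110, 97.5, 136 and 96.8 in the INL, against 259, 438, 281 and 343 in the GCL (-1.57 ± 0.21, adjusted p = 0.0012). Cplx2 was at -0.72 ± 0.15 (adjusted p = 0.049), a call lost in 7 of the 8 fits without 1 array. The ribbon synapse complexin Cplx3 had 128, 220, 161 and 189 in the INL, against 87.8, 79.4, 93.0 and 89.9 in the GCL (0.97 ± 0.22, adjusted p = 0.075, and 0.016 with the block). Of 27 genes of vesicles and release 3 were lower, 1 in a fit of only the 8 arrays, and with the block 5 were lower and 3 higher. Among them, Slc17a6 is also a called member of the ganglion cell list. Slc17a7 had a mean log2 level of 9.57 in the PRL, against 8.06 in the INL and 7.01 in the GCL. Photoreceptor transcripts were present in both layers, and their part in the Slc17a7 difference was not tested. Of 29 glutamate receptor and scaffold genes 0 were called, and 1 with the block, against 0.458% and 1.02% of all genes.

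Of 20 measured calcium-binding protein genes, Scgn and Cabp5 were higher in the INL and Calb2 was lower. The other 17 were not called, and the median of the list was -0.36. Calb2, calretinin, a marker of ganglion cells and of some amacrine cells, had 53.5, 55.6, 63.1 and 57.7 in the INL, against 236, 604, 394 and 638 in the GCL. The INL arrays lay within a narrow range far below the GCL arrays, and the difference was -2.92 ± 0.38 (7.58-fold lower, adjusted p = 0.0011).

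Atp1b1, a beta subunit of the sodium pump, was the 1 lower gene of 3 measured pump subunits, while Atp1b2 was at 0.69 and Atp1b3 at -0.45, neither called. Atp1b1 had 93.8, 133, 84.9 and 180 in the INL, against 309, 600, 356 and 782 in the GCL (-2.02 ± 0.33, adjusted p = 0.0077). It lost its call without replicate 1 of the light-adapted INL (adjusted p = 0.056) and without replicate 2 of the light-adapted or dark-adapted GCL (0.055 and 0.070). Sparcl1, a secreted matrix protein, had 87.6, 104, 72.2 and 147 in the INL, against 392, 638, 419 and 589 in the GCL (-2.33 ± 0.26, adjusted p = 0.00020). Rgs4, a regulator of G-protein signalling, had 27.5, 26.9, 30.2 and 30.6 in the INL, against 74.4, 127, 95.7 and 167 in the GCL (-1.95 ± 0.21, adjusted p = 0.00020). Neither gene overlapped between layers. The cyclin-dependent kinase Cdk14 fell by 2.08 ± 0.31, the monocarboxylate transporter chaperone Emb by 1.83 ± 0.36 and the reticulon Rtn1 by 1.67 ± 0.31. Emb had log2 values over 5 only on GCL arrays, so it entered the test through that layer. Its difference ran from -2.31 to -1.07 over 18 other settings of the fit. Eno2, neuronal enolase, had 87.3, 129, 85.4 and 126 in the INL, against 228, 329, 265 and 298 in the GCL (-1.40 ± 0.19, adjusted p = 0.0015). It was the 1 called of 17 glycolysis genes, 4 with the block, among them Tpi1 at -1.01 ± 0.23 (adjusted p = 0.074, and 0.016 with the block). The peptide gene Tac2, which encodes neurokinin B, fell by 1.26 ± 0.21 (adjusted p = 0.010) and was the 1 called of 15 neuropeptide and granin genes. Chromogranin Chga was at -0.43 ± 0.20 (adjusted p = 0.67). Emb lost its call in 6, Rtn1 in 5 and Tac2 in 3 of the 8 fits without 1 array, all 3 of them without replicate 2 of the light-adapted GCL (adjusted p of 0.14, 0.12 and 0.071).

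Channel genes with negative differences were not called. The medians were -0.23 over the 22 sodium and calcium channel genes and -0.13 over the 30 potassium and HCN channel genes, and the member with the most negative difference of each list is described here. Scn1a, a sodium channel of action potentials, had 11.6, 18.0, 14.1 and 14.8 in the INL, against 19.5, 49.1, 38.2 and 102 in the GCL. The layers did not overlap, but the GCL arrays ranged widely (-1.61 ± 0.41, adjusted p = 0.14, and 0.017 with the block). Kcnip4, a partner of Kv4 potassium channels, had 30.4, 53.4, 33.6 and 45.8 in the INL, against 75.3, 176, 55.5 and 174 in the GCL (-1.42 ± 0.32, adjusted p = 0.060, and 0.0032 with the block). The 18 other called genes, named after their values were seen, were at -1.44 to -0.78. They were Ywhah, Mapk10, Ttll7, Sh3bgrl3, Lynx1, Ppp2r2c, Capns1, Apba1, Dad1, Cst3, Myl12b, Nptx1, Trarg1, Rab6b, Epas1, Dok5, Ptprn and Sult4a1. Among them Mapk10 is the neuronal kinase JNK3, Nptx1 a neuronal pentraxin and Lynx1 a modulator of nicotinic receptors.

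Markers of the other cells that a capture could hold had no called member, with 0 of 7 for astrocytes, 0 of 16 for vessels, 0 of 9 for microglia and 0 of 6 for pigment epithelium. Of all genes 0.458% were called, so these counts are near that share and do not show that the layers are alike. The mean log2 levels of these markers were 5.63 ± 0.21 and 5.59 ± 0.12 for astrocytes in the INL and the GCL. For vessels they were 5.91 ± 0.03 and 6.03 ± 0.07 (SD, n = 4 each). For microglia they were 5.95 ± 0.14 in the INL and 5.88 ± 0.11 in the GCL, and for pigment epithelium 5.38 ± 0.16 and 5.30 ± 0.17. Gfap, the astrocyte filament gene, had 37.4, 23.1, 39.6 and 25.3 in the INL, against 44.1, 33.4, 43.7 and 29.3 in the GCL, with overlap. Pax2, a retinal astrocyte factor, was at 0.14 ± 0.18 and the microglial receptor Cx3cr1 at 0.14 ± 0.16. Rgs5, a pericyte gene, had 24.0, 18.6, 23.1 and 29.9 in the INL, against 31.1, 59.2, 59.5 and 71.7 in the GCL. These arrays did not overlap, and the difference was -1.17 ± 0.25 (adjusted p = 0.053, and 0.011 with the block). Immediate early genes (18) and oxidative phosphorylation genes (16) had 0 called members and medians of -0.06 and -0.20.

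The other layers placed the called genes along the depth of the retina. Of the 25 higher genes 23 had their highest mean level among the 4 layers in the INL, and 2, Cacna2d4 and Map7, in the PRL. Of the 44 lower genes 41 were highest in the GCL, Map1b and Cst3 in the PRL and Cplx2 in the IPL. Of all 15057 genes 3193 were highest in the INL and 2800 in the GCL. A called gene cannot be highest in the layer where it was lower, so these counts are partly fixed. The IPL, where INL and ganglion cells form synapses, lay between the INL and the GCL for 20 of the 25 (80%) and for 37 of the 44 (84.1%), against 22.2% of all genes. A gene chosen for a large difference between 2 layers leaves more room between them, so these shares are a description. Pcp2 had mean log2 levels of 7.41 in the PRL, 8.67 in the INL, 8.64 in the IPL and 7.67 in the GCL. The IPL level was thus as high as that of the INL. Trpm1 had 4.8 in the PRL, 6.49 in the INL, 5.31 in the IPL and 4.74 in the GCL. Nefl had higher means from layer to layer in this order, 3.81, 4.40, 5.93 and 7.81, as did Sncg with 7.61, 7.82, 8.74 and 9.80. Calb2 had 5.16, 5.84, 6.62 and 8.76. Thy1 stood at 3.04 in the PRL, 3.00 in the INL, 3.76 in the IPL and 9.11 in the GCL, where 3 is the floor. IPL arrays differed among themselves, with SDs (n = 4) of 0.88 for Thy1 and 1.27 for Nefl.

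**Figure D4:**
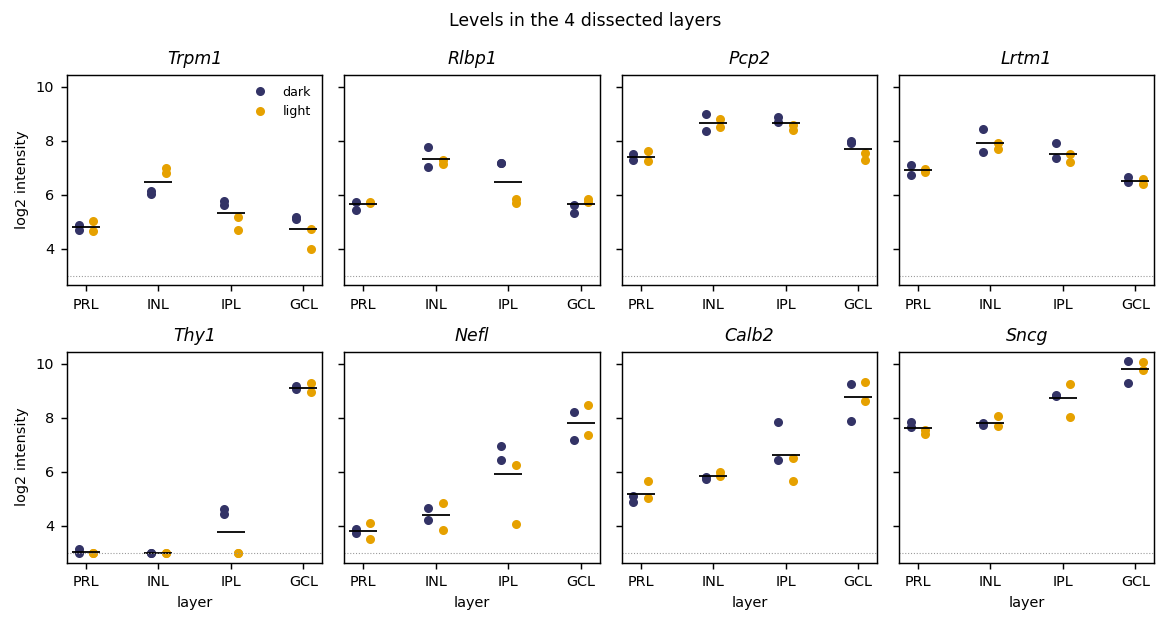
Log2 intensity on every array of the 4 dissected layers, in order of depth, for 4 genes higher in the INL (top) and 4 lower (bottom). Points are arrays (dark adapted on the left, light adapted on the right of each pair), bars are means over 4 arrays, and the dotted line is the floor of 3, where Thy1 lies on all INL arrays.

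Each adaptation state alone gave fewer calls. In the dark-adapted arrays 6 genes passed, 1 higher (0.00664% of those tested) and 5 lower (0.0332%) in the INL, 0.0398% together. In the light-adapted arrays 19 passed, 5 higher (0.0332%) and 14 lower (0.093%), 0.126% together. Both rest on 2 arrays a layer. With the block the counts were 28 in the dark and 58 in the light. The genes called in both were Thy1, Sncg, Nefm, Sparcl1, Rgs4 and Rlbp1. All 69 genes had the same sign in both states, which their choice by the mean over both largely fixes. The median size for the 25 higher genes was 1.16 in the dark and 1.25 in the light, and for the 44 lower genes 1.36 in the dark and 1.5 in the light.

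Trpm1 and Paip2 show the test of a layer difference that varies with adaptation. The INL minus GCL difference of Trpm1 was 0.93 ± 0.25 in the dark (adjusted p = 0.41) and 2.56 ± 0.25 in the light (adjusted p = 9.9e-05). Dark minus light of this difference was -1.62 ± 0.36 with an adjusted p of 0.76, so it did not pass. Rlbp1 was higher by 1.92 ± 0.23 in the dark and by 1.40 ± 0.23 in the light, and Thy1 lower by at least 6.11 ± 0.22 in both. Thy1 was set to the floor on all INL arrays, so only its GCL level could alter that difference. Paip2, which binds poly(A)-binding protein and restrains translation, was the 1 gene of 15057 (0.00664%) called for a layer difference that varied with adaptation. It had 46.4 and 44.2 in the dark-adapted INL, 56.2 and 63.3 in the dark-adapted GCL, 79.6 and 96.4 in the light-adapted INL, and 32.6 and 19.3 in the light-adapted GCL. Its layer difference was -0.40 ± 0.22 in the dark (adjusted p = 0.93) and 1.80 ± 0.22 in the light (adjusted p = 0.0015), and dark minus light was -2.20 ± 0.31 (adjusted p = 0.031). The count of 1 became 8 without replicate 1 of the light-adapted GCL and 0 without each of the other 7 arrays, and 0 with Y-linked signal as a covariate. Unadjusted, 711 of the 15057 genes had p under 0.05 for dark minus light in the limma fit. That share is below the 0.05 that would pass if no gene differed.

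**Figure D5:**
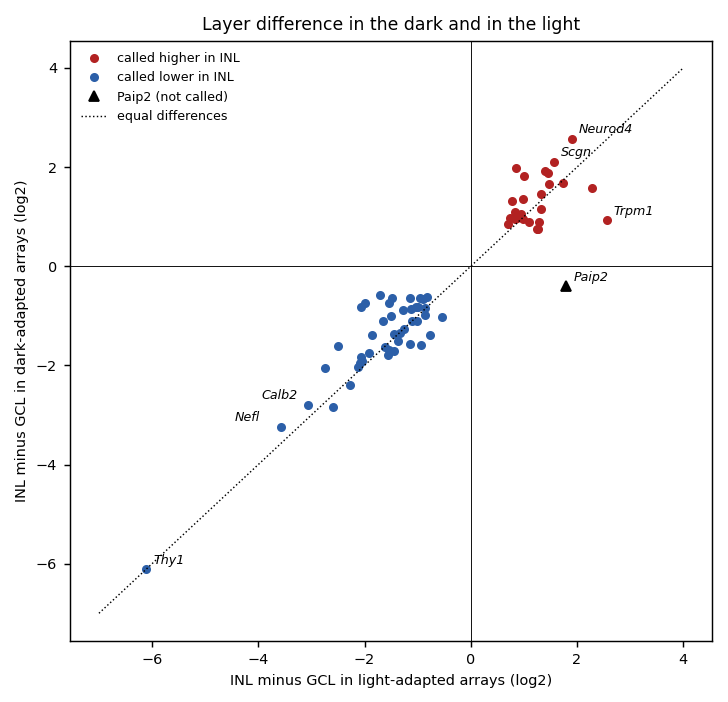
INL minus GCL in the light-adapted arrays (x axis) against the dark-adapted arrays (y axis), both log2, for the 25 genes called higher (red) and the 44 called lower (blue) over both states. All 69, chosen by the mean of both, lie in the quadrants of equal sign, and Paip2 (triangle), at 1.80 in the light and -0.40 in the dark, does not.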

How the data were processed

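The values are intensities that the authors deposited, 1 per probe set and array, made with GCRMA per the submitters' processing notes (version not given in the sources used here). That method adjusts each probe for background by its base composition and equalises the distributions of the arrays, so overall shifts in RNA content are removed. The scale was taken as linear from the values. The number of arrays limits the precision.

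Intensities were raised to a floor of 8 before the log2, which compresses differences of dim genes. Of 35557 probe sets, the platform table gave 1 symbol for 21789, several for 1621 and none for 12147. Probe sets with 1 symbol and a log2 value over 5 on at least 2 of the 20 arrays were kept, and the brightest probe set, by mean over all arrays, stood for its gene (15057 genes). A limma fit (limma 3.58.1, R 4.3.3) over all 20 arrays had 10 group means, 10 residual degrees of freedom and an intensity trend, with two-sided moderated tests and Benjamini-Hochberg adjustment over all genes at 0.05.

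The members, the 26 gene lists and the tests were chosen with earlier results of these data known. Some lists share members, so the same call can count in several of them. Genes were named from the 15 largest differences in each direction among called genes without overlap, up to 6 members of each list by smallest p, the first 3 measured members of each cell type list, the 5 smallest p for dark minus light, and genes under the floor on all 4 arrays of a layer and over 64 on all 4 of the other. Exceptions are marked in the text.

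Replicate numbers in the titles were used only in the fits with a block. The block is 1 shift between the numbers, shared by all layers and both adaptation states unless given as within adaptation. The main tests did not use the numbers. The deviations of INL and GCL arrays with the same number correlated across genes at 0.29 in the dark and 0.30 in the light, arrays with the same number in different adaptation states did so at 0.23 to 0.43, and the first principal component of the 8 arrays (32.9% of variance) separated replicate 1 from replicate 2. The use of the numbers therefore comes from the data, as no label says what a number marks. Arrays with the same number did not all share Y-linked signal. It was 26.7 on replicate 2 of the light-adapted INL and 203 on replicate 2 of the light-adapted GCL. Whether same-numbered arrays share animals was not tested, so p-values with the block rest on an assumption.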

Additional observations from a re-analysis of the deposited data

Results flagged for a closer look

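In groups of 4 arrays, 5 of 212 values checked stood far from the other 3, by a criterion that chance meets in about 1 in 20 groups, so no more than chance gives. Nefh had an intensity of 549 in replicate 2 of the light-adapted GCL, above the other 3 GCL arrays. Satb1 had 90.1 in replicate 1 of the dark-adapted GCL, below the other 3. The mean log2 level of Müller glia markers was 6.45 in replicate 2 of the light-adapted GCL, above the other GCL arrays, and that of microglia markers was 5.71 on the same array, below them. The mean level of the mGluR6 cascade was 6.24 in replicate 2 of the dark-adapted GCL, below the other GCL arrays. Paip2 was marked because its layer difference varied with adaptation, by -2.20 for dark minus light in the limma fit (adjusted p = 0.031).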

How the results depend on the processing

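Of the counts of called genes (25 higher and 44 lower in the INL, 6 in the dark, 19 in the light, 1 for dark minus light), some moved by more than 1.5 times. Quantile normalization gave 12 in the dark and median centring 3. No filter gave 7 higher and 22 lower, 5 in the light and 3 for dark minus light. A filter at log2 over 7 gave 14 higher and 12 in the light. A fit without the intensity trend gave 0 for dark minus light. A fit of only the 8 INL and GCL arrays gave 4 higher and 13 lower, 1 in the dark, 2 in the light and 0 for dark minus light. With log2 of intensity plus 16, or the mean of probe sets, no count moved that far. The cause was not tested beyond what fewer arrays or more genes tested imply.

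With the replicate block the counts were 45 higher and 109 lower, 28 in the dark and 58 in the light. With a replicate block within adaptation, added after seeing the data, they were 43 and 101, 21 and 47. Some of the calls that the block changed are given beside the genes, and the rest are not listed. Y-linked signal as a covariate, also added after seeing the data, gave 0 for dark minus light.

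Without 1 array in turn the counts ran from 5 to 34 higher, 14 to 63 lower, 1 to 10 in the dark, 3 to 28 in the light and 0 to 8 for dark minus light. In the same fits Gad1 ran from -0.11 to 0.03, with 0.01 without replicate 2 of the light-adapted GCL, and Gnat1 from -0.98 to 0.25, both around main values (-0.04 and -0.36) that were not called. Left with 1 array, a group is assumed to vary like the others. Probe sets near background limit the dim genes.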

Other observations

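Among 9260 probe sets without a single gene symbol, fitted apart from the genes with limma, 1 was higher and 1 lower in the INL (0.0216%). Of 143 microRNA genes tested with limma among all genes, 0 were called and 7 had an unadjusted p under 0.05. That share is below the 0.05 that would pass if none differed.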
